A study of Homo sapiens with 6 samples.

Results

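The genotype difference in static culture was read from 2 arrays of the 6 in the series, 1 of PKHD1-/- organoids and 1 of PKHD1+/- organoids, picked by the array titles for the matrix culture without flow. Kidney organoids are small tissues of nephron segments and stroma that pluripotent stem cells form in culture, and these were made from the established human embryonic stem cell line H9. The PKHD1-/- organoids came from clone C51 and the PKHD1+/- organoids from clone C9. All carried at least 1 mutant copy of PKHD1, and no organoids with 2 intact copies were compared. Static organoids of both genotypes were kept on a gel layer of gelatin and fibrin, in medium that did not flow, and were harvested at day 35. The remaining 4 arrays serve here as a background. On 2 of them organoids of the same clones lay on that matrix while medium flowed over them at 4.27 ml/min, starting at day 15. On the other 2 they received 20 µM forskolin, which raises cyclic AMP, from day 14. The labels do not say whether the forskolin organoids lay on the matrix. With 1 clone per genotype, clone and genotype cannot be told apart, and with 1 array a side the differences below are values without a test.

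Mutations of PKHD1 cause autosomal recessive polycystic kidney disease, in which collecting ducts widen into cysts and the liver becomes fibrotic. It encodes fibrocystin, a large membrane protein found at the primary cilium, the antenna-like organelle of tubule cells. Organoids of this kind form podocytes, proximal tubules and distal nephron segments among stroma, and cells of other lineages, such as muscle and cartilage, can arise beside them. Metallothioneins, the gene family with the lowest values below, are small cysteine-rich proteins that hold zinc and copper. Their transcription is switched on by the zinc-sensing factor MTF1 through short DNA motifs called metal response elements.

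The promoters of metallothionein genes are shown because this family holds 8 of the 39 genes that were at least 2-fold lower in PKHD1-/- static organoids. The RefSeq promoter table (GRCh38.p14) held 4 of the 12 metallothionein genes above background. The 250 bases before each start are given 5′ to 3′. Capitals mark the core of the metal response element, searched as TGCACNC and TGCGCNC on both strands, and no matches overlapped in these windows.
MT2A, chr16:56608334-56608583, plus strand: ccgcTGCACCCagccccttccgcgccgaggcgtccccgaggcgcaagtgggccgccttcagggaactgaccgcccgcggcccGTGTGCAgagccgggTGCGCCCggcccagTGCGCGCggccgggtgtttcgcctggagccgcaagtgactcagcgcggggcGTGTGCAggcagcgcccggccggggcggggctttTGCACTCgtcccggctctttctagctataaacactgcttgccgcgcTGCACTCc
MT1H, chr16:56669564-56669813, plus strand: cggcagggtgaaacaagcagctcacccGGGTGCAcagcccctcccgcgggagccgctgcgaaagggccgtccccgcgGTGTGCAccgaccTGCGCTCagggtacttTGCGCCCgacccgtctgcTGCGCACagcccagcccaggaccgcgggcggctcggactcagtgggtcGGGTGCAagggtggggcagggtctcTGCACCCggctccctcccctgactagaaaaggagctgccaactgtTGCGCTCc
MT1B, chr16:56651636-56651885, plus strand: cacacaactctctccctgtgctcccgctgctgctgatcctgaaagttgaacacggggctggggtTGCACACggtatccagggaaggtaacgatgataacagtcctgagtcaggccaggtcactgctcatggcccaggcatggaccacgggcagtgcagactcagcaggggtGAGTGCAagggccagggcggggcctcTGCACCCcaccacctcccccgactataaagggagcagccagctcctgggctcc
MT1X, chr16:56682220-56682469, plus strand: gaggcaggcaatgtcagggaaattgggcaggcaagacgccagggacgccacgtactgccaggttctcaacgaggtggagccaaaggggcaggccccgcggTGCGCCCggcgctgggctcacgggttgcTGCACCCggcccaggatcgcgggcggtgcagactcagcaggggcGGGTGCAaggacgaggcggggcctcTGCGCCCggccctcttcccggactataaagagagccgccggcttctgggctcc
The core was found 7 times before MT2A, 8 times before MT1H, 3 times before MT1B and 4 times before MT1X. Of all 27305 promoters in that table, 24.7% held at least 1 match in the same window and 6.51% held 2 or more. For genes above background on a static array these shares were 30.85% and 8.75%. The printed windows held 62.4 to 73.2% G and C, against a median of 58.0% over all promoters and 63.2% for genes above background. A match is a description of the letters and not a measured binding site.

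Cy5-labelled amplified RNA was read on 3D-Gene Human 25k arrays, each with 1 colour, and levels are given as normalized log2 intensity, so that 1 unit is a 2-fold difference. The blank spots were exceeded by the median spot by 33.6 intensity units on the PKHD1-/- static array and by 37.2 units on the PKHD1+/- static array. The excess was 16.5 to 58.3 units on the other 4 arrays, of which the forskolin pair was the dimmest and carries another date in its file names. The 2 static arrays were the most alike of all pairs across 16027 genes (Pearson r = 0.983). The PKHD1-/- static array was closer to the PKHD1+/- flow array (0.981) than to the PKHD1-/- flow array (0.970), and the PKHD1+/- static array was closer to the PKHD1-/- flow array (0.977) than to the PKHD1+/- flow array (0.974). Thus the matrix arrays were more alike across the genotype labels than within them. The kidney markers WT1, NPHS1, PAX2, EPCAM, LRP2, UMOD and GATA3 lay above background on both static arrays. So did 15555 of all 17446 genes, so passing this cut says little about kidney identity. Repeated spots of 1 positive control varied with an SD of 0.106 to 0.153 (24 spots per control and array). The means of the 2 controls were 14.80 and 14.32 in PKHD1-/- against 15.18 and 14.06 in PKHD1+/-. These control values are background-corrected log2 intensities before normalization between arrays, so the means cannot be set beside the normalized differences of genes. Among 2334 genes with 2 probes, the static difference read by 1 probe and the other differed with an SD of 0.270. These figures describe technical spread alone, and the spread between cultures of 1 genotype was not measured.

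PKHD1 itself read 7.35 in PKHD1-/- and 7.49 in PKHD1+/- static organoids, 7.37 and 7.4 under flow, and 7.33 and 7.24 with forskolin. These are means of 2 probes, and the static difference of the mean was -0.14. The probes did not point the same way in static culture, at 6.55 against 6.92 for one and 8.14 against 8.05 for the other. Over the 6 arrays the first ran from 5.97 to 6.92 and the second from 8.03 to 8.69. The static difference was -0.32 in the authors' value table and 0.09 by the brighter probe alone. Neither the site of the mutations nor the positions of the probes are given, so these levels check nothing about the genotypes.

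Most genes read nearly the same in both genotypes. The median static difference, PKHD1-/- minus PKHD1+/-, was -0.00 over the 16027 genes above background on at least 1 static array, 49.1% of them were positive, and the middle 50% lay between -0.11 and 0.09. A difference of 2-fold or more, the threshold used for every count below, was found for 70 genes higher in PKHD1-/- (0.437%) and 39 genes lower (0.243%). All 109 lay above background on both static arrays. The highest values were those of ACTC1, COL1A1, KLHL41, MYH3 and MYL1, and the lowest those of MT1P3, MT1G, MT1H, AFP and MT1HL1. These counts depend on how dim spots are treated: with a smaller normexp offset of 16 they were 133 and 86, and in the authors' value table, which adds no offset, 519 and 402. In bulk RNA, fewer cells of a type and less RNA per cell cannot be told apart.

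**Figure D1:**
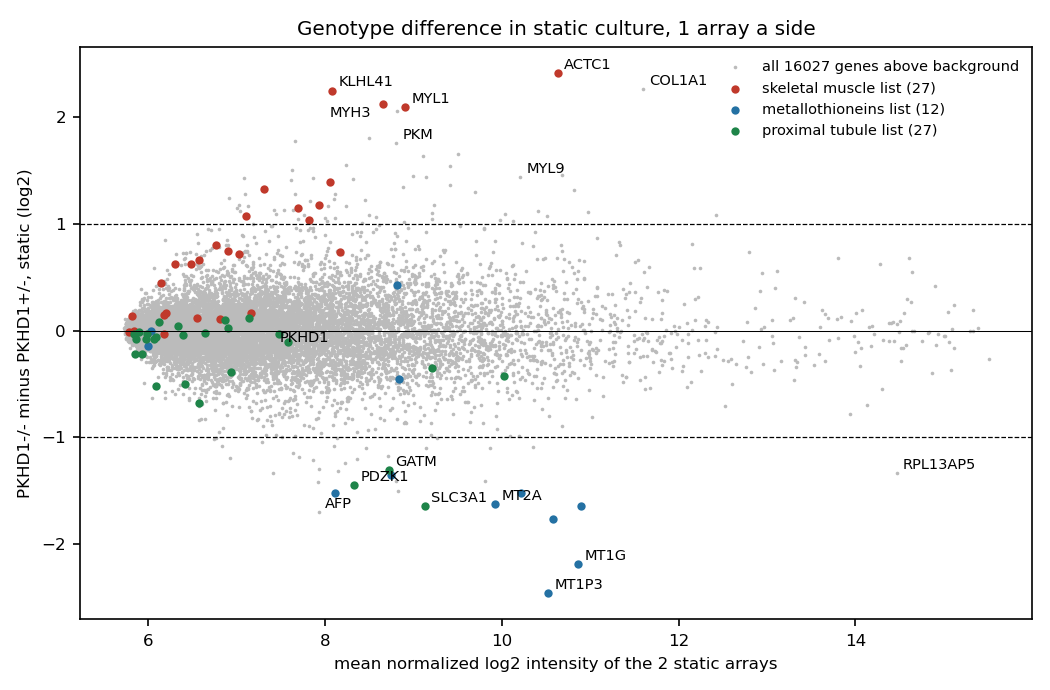
The horizontal axis is the mean normalized log2 intensity of the 2 static arrays and the vertical axis the log2 difference PKHD1-/- minus PKHD1+/-, 1 point per gene, with dashed lines at 2-fold. Muscle genes (red) reach 2.42 at ACTC1, 8 of the 12 metallothioneins (blue) lie below the lower line, and of the 27 proximal tubule genes (green) SLC3A1, PDZK1 and GATM lie below the lower line, with LRP2 (-0.68) next.

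Metallothioneins were lower in PKHD1-/- static organoids. Of 15 genes listed, 13 were on the array and 12 were above background. Of these, 11 had a negative value and 8 were at least 2-fold lower, against 0.243% of all genes, and the median was -1.53. The family had already been picked out in earlier work on these data, so its count is no independent evidence of a direction. Its summed linear level was 6133 in PKHD1-/- and 19595 in PKHD1+/- static organoids, 53115 and 74189 under flow, and 9481 and 9106 with forskolin. The PKHD1-/- static array was thus the lowest of the 6 in this sum and the flow arrays were the highest.

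MT1G read 9.77 in PKHD1-/- and 11.96 in PKHD1+/- static organoids, 13.26 and 13.96 under flow, and 10.19 and 10.53 with forskolin. PKHD1-/- static was the lowest of the 6 arrays and stood 4.55-fold below PKHD1+/- static. MT2A, whose promoter is given above with 7 matches, read 9.11 and 10.74 in static culture, 12.02 and 12.16 under flow, and 10.23 and 10.29 with forskolin. Here too PKHD1-/- static was the lowest array, with a static difference of -1.63, whereas the genotypes lay within 0.14 of each other under flow. MT1H (-1.77), MT1A (-1.53), MT1B (-1.52) and MT1X (-1.36), all encoding classical metal-binding isoforms, had the same direction. The largest static difference of any gene was that of MT1P3, a metallothionein pseudogene, at 9.29 against 11.76, or 5.51-fold, and MT1HL1, a further copy, stood at -1.65. Metallothionein copies are nearly identical, and the sharing of signal between their probes was not tested, so the 8 genes may not be separate readings. The isoforms with smaller values were MT1F (-0.46), MT1M (-0.14), MT1E (-0.01) and MT3 (0.42), a form best known from brain.

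Other genes of metal handling did not share these values. In the list of metal transport and oxidative stress genes, 17 of 26 were positive, none differed 2-fold and the median was 0.04. Few or none would be found in a list of this size, since 0.437% of all genes were at least 2-fold higher and 0.243% lower. MTF1, the metal-sensing activator, stood at -0.06, and SLC30A1, the zinc exporter that MTF1 also activates, stood at -0.05. FTH1, the heavy chain of the iron store ferritin, was highest at 0.68, and GPX3, a secreted glutathione peroxidase made by tubule cells, was lowest at -0.59.

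Among the 20 lowest genes were 3 of the proximal tubule list, SLC3A1, PDZK1 and GATM. Of the 27 genes of the proximal tubule list, 5 were positive, 3 were at least 2-fold lower, against 0.243% of all genes, and the median was -0.08. This median depended on the setting: it was -0.31 in the authors' value table and 0.03 with 75th percentile scaling, where the medians of all genes were 0.02 and 0.08. SLC3A1, a subunit of the cystine transporter of the brush border, read 8.31 in PKHD1-/- and 9.96 in PKHD1+/- static organoids, 10.32 and 10.06 under flow, and 7.37 and 7.30 with forskolin. PDZK1, a scaffold for brush border transporters, read 7.61 and 9.06, then 9.48 and 8.96, then 6.41 and 6.44 in the same order. GATM, which makes the precursor of creatine, read 8.07 and 9.37, then 10.11 and 9.99, then 8.63 and 8.13. In all 3 genes PKHD1-/- static was the lowest of the 4 matrix arrays, as in 36 of the 39 genes at least 2-fold lower. The choice of genes by a low PKHD1-/- static value favours this, so nothing is read from it. The other 3 matrix arrays lay closer together, and the genotypes differed by no more than 0.52 under flow. LRP2, the endocytic receptor megalin that defines this segment, stood at -0.68 (6.24 against 6.92), SLC34A1, the phosphate transporter, at -0.52 and FBP1, an enzyme of glucose synthesis, at -0.50. CUBN, the partner receptor of LRP2, stood at -0.04. The summed level of the list was 4144 in PKHD1-/- and 6169 in PKHD1+/- static organoids, 6779 and 6147 under flow and 3282 and 2981 with forskolin.

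Further metabolic genes among the 20 lowest are expressed in kidney tubule or liver and were on no proximal tubule list here. FMO1, a flavin monooxygenase, stood at -1.51 (8.07 against 9.58). BHMT, which remethylates homocysteine, stood at -1.42, BBOX1, the last enzyme of carnitine synthesis, at -1.33, and AKR1C3, a steroid and prostaglandin reductase, at -1.41. ALDH1A1, which makes retinoic acid, read 7.48 against 8.80, a difference of -1.32. KCNJ16, a potassium channel subunit of the distal nephron, read 9.10 in PKHD1-/- and 10.52 in PKHD1+/- static organoids, 9.45 and 9.74 under flow, and 8.21 and 8.26 with forskolin. PKHD1+/- static was the highest of the 6 arrays for KCNJ16, unlike for SLC3A1. Under flow these 6 genes differed between genotypes by -0.29 to 0.36, and with forskolin by -0.53 to 0.16.

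AFP, a fetal liver and yolk sac protein, stood at -1.70, with 7.08 against 8.78 in static culture, 8.37 and 8.02 under flow, and 6.52 and 6.5 with forskolin. In the liver and gut list 4 of 16 genes were positive, 2 were at least 2-fold lower, against 0.243% of all genes, and the median was -0.05. The 2 were AFP and APOA1, the main protein of high-density lipoprotein, at -1.08. The part of liver-like or gut-like cells in the tubule values was not tested; ALB, which defines liver cells, read 5.84 and 5.91, near the lowest level of probes above background (5.78 and 5.80).

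**Figure D2:**
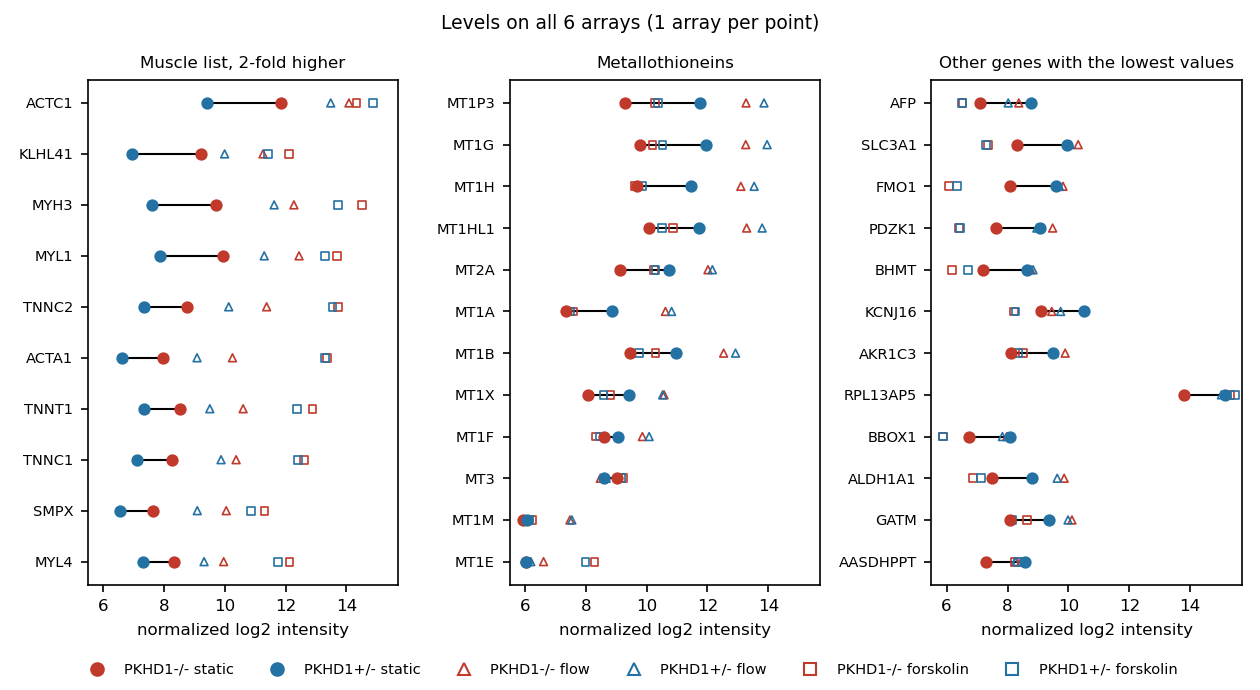
Each row is a gene and each symbol its normalized log2 intensity on 1 array, with filled circles for static culture (red PKHD1-/-, blue PKHD1+/-), open triangles for flow and open squares for forskolin, and a black line joining the static pair. Muscle genes are lowest in PKHD1+/- static, whereas the 8 low metallothioneins and the tubule genes lie lower in PKHD1-/- static than on the other 3 matrix arrays. These genes were picked by their static differences, which favours such an order.

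Of the 39 genes lower by 2-fold or more, 20 have been named as the lowest, and they include RPL13AP5, a copy of a ribosomal protein gene (-1.34), and AASDHPPT, which activates acyl carrier proteins (-1.30). RPL13AP5 cannot be told from its parent gene here, since sharing between probes was not tested. The remaining 19, named because they complete the count, lay between -1.24 (AK3L1) and -1.0. Among them, DCDC2, a doublecortin-family protein of cilia, stood at -1.21, DDC, which makes dopamine, at -1.20, and SUCNR1, the succinate receptor, at -1.19. FGFR3, a growth factor receptor (-1.11), FOXC1, a transcription factor of early kidney and podocyte lineages (-1.09), A1CF, an RNA-binding protein of kidney, liver and gut (-1.0), and MAF, a transcription factor (-1.0), followed. GUCY1A1, the alpha subunit of the nitric oxide receptor, stood at -1.0 in static culture, -1.19 under flow and -1.0 with forskolin. The others were LGALS2, CCDC198, PNMA1, NDUFB5, CNOT2, APOA1, ARL14EP, ING4, CLRN3 and ANXA13.

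Skeletal muscle genes were higher in PKHD1-/- static organoids, although they mark a cell type outside the kidney. Of 32 genes listed, 29 were on the array and 27 above background. Of these, 24 were positive, 10 were at least 2-fold higher, against 0.437% of all genes, and the median was 0.72. The median was 1.04 with the smaller offset and 1.59 in the authors' value table. The summed level of the list was 10002 in PKHD1-/- and 3540 in PKHD1+/- static organoids, 43581 and 25907 under flow, and 117649 and 107359 with forskolin. Both static arrays were thus the lowest of the 6, with PKHD1+/- static lowest of all. The median under flow was 0.59, with 23 positive, and with forskolin it was 0.00.

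ACTC1, the actin of heart and fetal skeletal muscle, read 11.84 in PKHD1-/- and 9.42 in PKHD1+/- static organoids, 14.08 and 13.48 under flow, and 14.33 and 14.88 with forskolin. The static difference of 2.42 (5.34-fold) was the highest of any gene. MYH3, the embryonic myosin heavy chain, read 9.72 and 7.60, then 12.27 and 11.62, then 14.52 and 13.73. MYL1, a fast myosin light chain (2.10), and KLHL41, a sarcomere protein (2.25), showed the same order of cultures, with forskolin highest and static lowest in both genotypes. The troponins TNNC2, TNNT1 and TNNC1 stood at 1.39, 1.18 and 1.15, the skeletal actin ACTA1 at 1.33, SMPX at 1.08 and the light chain MYL4 at 1.04. Of the factors that set muscle fate, MYOD1 read 7.16 against 6.36 (0.80) and MYOG 6.37 against 5.92 (0.45), while PAX7, a marker of muscle precursors, stood at 0.11. The lowest value in the list was -0.03, and TTN and RYR1 were not above background on either static array.

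Of the 70 genes at least 2-fold higher in PKHD1-/- static organoids, 31 were at least 2-fold lower in PKHD1-/- organoids under flow, where 0.78% of all genes were. The 70 were brighter than most, at a median level of 8.97 on the brighter static array against 6.77 for all genes. The normexp offset draws dim genes together, and the share among bright genes alone was not counted. The known roles of the 31 genes are mixed. COL1A1, the main chain of type I collagen, read 12.73 in PKHD1-/- and 10.47 in PKHD1+/- static organoids, 9.26 and 12.50 under flow, and 11.05 and 11.10 with forskolin. The static difference was 2.26 (4.80-fold) and the flow difference -3.25. PKHD1-/- static and PKHD1+/- flow were the high arrays, and PKHD1-/- flow was the lowest. COL1A2, whose protein forms the same collagen fibre with that of COL1A1, read 13.11 and 12.73 in static culture, a difference of 0.38. COL3A1, another fibrillar collagen of stroma, stood at 0.17.

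MYL9, a myosin light chain of smooth muscle and other contractile cells, read 10.93 against 9.49 in static culture and 7.24 against 10.42 under flow. YWHAE, a 14-3-3 adaptor protein, read 9.85 against 7.79 and then 7.07 against 9.39. PKM, a pyruvate kinase of glycolysis, read 9.68 against 7.93 and then 7.42 against 9.64. In each of the 3, as in COL1A1, the forskolin arrays differed by 0.32 or less. TPM4, a tropomyosin (1.81), IGF2BP2, an RNA-binding protein of embryonic cells (1.78), BSG, a partner of lactate transporters (1.54), IL32, a cytokine (1.51), BAT1, an RNA helicase listed under an older name (1.46), PRKCSH, a glucosidase subunit of the endoplasmic reticulum (1.43), and SF3B4, a splicing factor (1.43), had flow differences from -2.52 to -1.48. PKM and BAT1 were each read by 2 probes, at 1.25 and 2.26 for PKM and 1.04 and 1.87 for BAT1. XRN2, an RNA-degrading nuclease of transcription termination, stood at 1.44 in static culture, -0.86 under flow and 1.22 with forskolin.

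Besides these 31 genes, 6 of the 70 were at least 2-fold higher in PKHD1-/- under flow, where 0.281% of all genes were. With forskolin 5 were at least 2-fold higher and 1 lower, against 0.474% and 0.424% of all genes. The median of the 70 was -0.82 under flow and 0.08 with forskolin. The static and flow pairs share no array. Across all 16027 genes the static difference correlated with the flow difference at Pearson r = -0.35 (Spearman rho = -0.35) and with the forskolin difference at 0.08 (rho = 0.11). Genes are not independent replicates, each pair is 1 array a side, and the 6 arrays were normalized together. The 6 genes at least 2-fold higher in both matrix cultures were the muscle genes TNNT1, ACTA1, TNNC2, MYL1 and KLHL41, and TMSL8. Besides the genes described here and below, 30 of the 70 lay between 1.01 and 1.41. From the group lower under flow these were the actin-binding PFN1 (1.32), the spectrin SPTAN1 (1.08), the chromatin protein HMGA1 (1.28), GSTM1, CYB5R3, PPP1R11, KDELR1, ERI3, BANF1, SH3BGRL3 and GRINA. Among the others were CDH15 (1.08), MEGF10 (1.24) and PDLIM3 (1.29), known from muscle and on no list here, and TNMD (1.14), known from tendon. The rest were CPXM1, CYTL1, CD81, ISLR, SESN1, FTSJ3, ATP5F1D, COPG1, STAP2, DAAM1, SH3GL1, TMEM109, HTR2B, FXYD6 and RPS3AP47, a ribosomal protein copy.

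**Figure D3:**
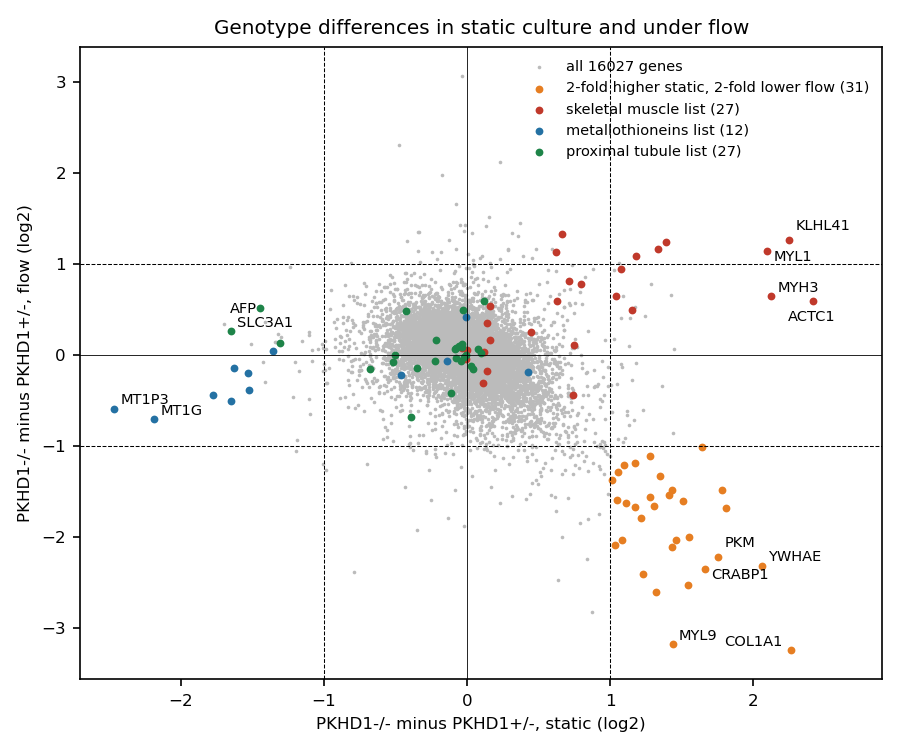
Each point is 1 of 16027 genes, with its log2 difference PKHD1-/- minus PKHD1+/- in static culture on the horizontal axis and under flow on the vertical axis, and dashed lines at 2-fold. The 31 genes in orange, COL1A1 and MYL9 farthest, are higher in static culture and lower under flow, most muscle genes (red) are positive on both axes, and the low metallothioneins (blue) lie between -0.70 and 0.05 under flow.

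The median level of the 70 genes was 8.97 in PKHD1-/- and 7.59 in PKHD1+/- static organoids, 8.63 and 9.28 under flow, and 8.98 and 8.67 with forskolin. The static values of this set and of the next were fixed by the choice of the genes, so nothing is read from them, and the flow and forskolin values were not part of that choice. The median level of the 39 lower genes was 7.77 in PKHD1-/- and 9.01 in PKHD1+/- static organoids, 8.79 and 8.96 under flow, and 7.61 and 7.83 with forskolin. Under flow, 19 of the 39 were positive, 2 were at least 2-fold lower and none at least 2-fold higher, and the median was -0.06. With forskolin 12 were positive, 3 were at least 2-fold lower and none higher, and the median was -0.11.

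**Figure D4:**
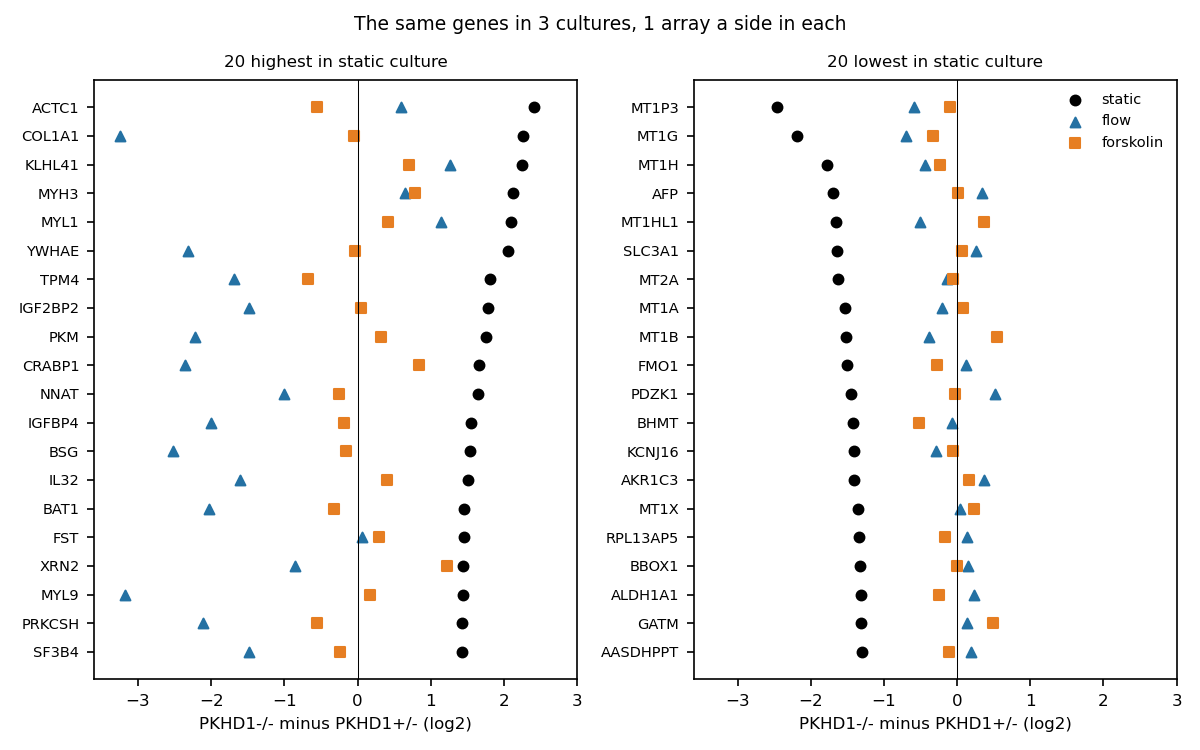
Log2 differences PKHD1-/- minus PKHD1+/- of the 20 highest genes (left) and the 20 lowest genes (right) in static culture (black circles), under flow (blue triangles) and with forskolin (orange squares), 1 array a side. On the left most flow values lie below 0, down to -3.25 at COL1A1, and on the right the flow and forskolin values lie between -0.70 and 0.54.

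By list, stroma and fibroblast genes and fibrosis genes lay a little above the median of all genes after quantile normalization. With 75th percentile scaling their medians were 0.08 and 0.12, against 0.08 for all genes. In the stroma list 19 of 25 genes were positive, 2 were at least 2-fold higher, against 0.437% of all genes, and the median was 0.16. The 2 were COL1A1 and OGN, a matrix proteoglycan, at 1.03. In the fibrosis and TGF-beta list 23 of 33 were positive, 1 was at least 2-fold higher and the median was 0.16, against -0.50 under flow. LOXL2, which crosslinks collagen, stood at 0.96, the ligand TGFB1 at 0.71, fibronectin FN1 at 0.71 and vimentin VIM at 0.68. TAGLN, an actin-binding protein of smooth muscle, stood at 0.87 (11.52 against 10.65), whereas ACTA2, the smooth muscle actin, stood at -0.25. Muscle markers were higher on the same array, at a summed level of 10002 against 3540, and their part in the matrix values was not tested. MMP2, which degrades gelatin and type IV collagen, read 10.49 against 9.46 (1.03), the collagen chaperone SERPINH1 10.10 against 8.74 (1.36), and CTSK, a collagen-degrading protease, stood at 0.72. All 27 genes of the protease list had a median of 0.04.

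A ligand and several binding proteins of the insulin-like growth factor axis were higher in PKHD1-/- static organoids. Of 22 genes, 14 were positive, 5 were at least 2-fold higher, against 0.437% of all genes, and the median was 0.06, or 0.39 in the authors' value table. The summed level of the list went the other way, at 22829 in PKHD1-/- and 28123 in PKHD1+/- static organoids. It was 12897 and 26502 under flow, and 17647 and 20713 with forskolin. Under flow, 6 of the 22 were at least 2-fold lower in PKHD1-/-, against 0.78% of all genes. The growth factor gene IGF2 read 11.53 in PKHD1-/- and 10.42 in PKHD1+/- static organoids, 10.08 and 11.71 under flow, and 11.89 and 11.28 with forskolin. Its static difference of 1.11 was 0.78 when the brightest probe alone was used. Among the binding proteins, IGFBP4 stood at 1.55, IGFBP5 at 1.10 and IGFBP2 at 1.05, whereas IGFBP7 stood at -0.70. IGF2BP2, which binds IGF2 messenger RNA, was named above at 1.78. Of 18 imprinted growth genes, 9 were positive, 3 were at least 2-fold higher, against 0.437% of all genes, and the median was 0.00. The 3 were NNAT (1.64), IGF2 and MEST (1.09), while CDKN1C, an inhibitor of cell division, stood at 0.68.

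Retinoic acid genes were split. CRABP1 and CRABP2, which bind retinoic acid in the cytoplasm, stood at 1.66 and 1.35, and ALDH1A1 at -1.32. The list of 21 had 12 positive values and a median of 0.08. FST, a secreted inhibitor of activins and BMPs, read 9.73 against 8.28 (1.45), while 12 of 28 genes of the BMP list were positive with a median of -0.04, among them ID3, a BMP target, at -0.71. In the WNT list 30 of 41 were positive, 1 was at least 2-fold higher and the median was 0.09. That gene was SFRP2, a secreted WNT modulator, at 9.03 against 7.60 (1.42), with 0.66 under flow. KREMEN2, a receptor for DKK proteins, stood at 0.71.

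Like the proximal tubule list (median -0.08), the lists of other nephron cell types had medians near 0. In the podocyte list 6 of 22 genes were positive, none differed 2-fold and the median was -0.09. At the shares of all genes (0.437% higher and 0.243% lower) few or none would be found there. DACH1 and WT1, transcription factors of podocytes, stood at -0.86 (8.48 against 9.35) and -0.73 (8.39 against 9.12), and nephrin NPHS1, the slit diaphragm protein, at -0.35. ACTN4, an actin crosslinker, stood at 0.56. Of 19 genes of the loop of Henle and distal tubule 8 were positive with a median of -0.02, KCNJ16 being the 1 gene at least 2-fold lower. Of 22 collecting duct genes, the segment affected in the disease, 13 were positive with a median of 0.01, and the keratin KRT18 stood at -0.62. In the nephron progenitor list, 14 of 23 were positive with a median of 0.06. There SIX2, which keeps progenitors undifferentiated, stood at 0.51, and JAG1, a Notch ligand of the early nephron, at -0.87. In the epithelial list, 8 of 25 were positive with a median of -0.10, and the adhesion molecule EPCAM read 9.60 against 10.28 (-0.68).

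No gene of the primary cilium list differed 2-fold between the static arrays. Of all genes, 0.437% were at least 2-fold higher and 0.243% lower, so few or none would be found in a list of this size. Of 34 genes, 7 were positive, against 49.1% of all genes, the range was -0.57 to 0.37 and the median was -0.11, against 0.07 under flow and 0.00 with forskolin. IFT81 read 7.37 in PKHD1-/- and 7.93 in PKHD1+/- static organoids (-0.57), 7.60 and 7.25 under flow, and 7.07 and 6.94 with forskolin. IFT74, which pairs with IFT81 to carry tubulin along the cilium, stood at -0.54, IFT46 at -0.54, IFT88 at -0.45 and BBS2, a subunit of the BBSome, at -0.48.

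Of 19 genes mutated in polycystic kidney or liver disease or in related cyst models, 7 were positive and the median was -0.03. PKD1 and PKD2, which encode the polycystins mutated in the dominant disease, stood at 0.10 and -0.04. PRKCSH, which is mutated in polycystic liver disease, was the 1 gene at least 2-fold higher, at 8.58 against 7.15. GANAB, which encodes the catalytic subunit of the same glucosidase, stood at 0.60, SEC61A1, a channel of the endoplasmic reticulum, at 0.47, and ALG8, an enzyme of protein glycosylation, at -0.61. PRKCSH stood at -2.11 under flow and -0.56 with forskolin.

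Among lists of cell state, the respiratory chain had the lowest median after metallothioneins. Of its 39 genes 13 were positive and the median was -0.19, against 0.19 under flow and -0.14 with forskolin. NDUFB5, a subunit of complex I, read 9.31 against 10.42 (-1.10) and CYC1, of complex III, stood at 0.96. In the unfolded protein list 12 of 32 were positive, with a median of -0.08, and CALR, a calcium-binding chaperone, was the 1 gene at least 2-fold higher (1.17). Hypoxia and glycolysis genes had a static median of 0.07 with 17 of 33 positive, against a median of 0.53 under flow. For cell cycle genes (35), cytosolic ribosomal protein genes (38), HOX genes (37) and interferon response genes (30) the medians lay between -0.02 and 0.01. Cyclic AMP targets (28), chloride and fluid secretion genes (18), immediate early genes (34) and YAP and shear stress genes (31) had medians from 0.01 to 0.04. Claudins (18) and nitric oxide and cyclic GMP genes (20) had medians of -0.04 and -0.02, cholesterol synthesis genes (28) 0.03, heat shock genes (19) 0.05 and p53 targets (24) 0.08. Chemokines and cytokines had a median of 0.00 with 17 of 32 positive, and IL17B, a cytokine, stood at 0.82 in static culture, 0.85 under flow and 1.39 with forskolin. HOXC10, a posterior HOX gene, stood at 1.28, and CXCR4, a chemokine receptor, at 1.17.

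Cell types outside the nephron, apart from muscle and stroma, had medians near 0. For neuron markers the median was 0.06 (20 of 27 positive), with GAP43, a growth cone protein, at 0.94. Cartilage and bone markers had a median of 0.01 (14 of 23 positive), and COL2A1, the cartilage collagen, stood at 1.08. Endothelial markers had a median of 0.02 (14 of 23 positive), macrophage and leukocyte markers 0.01 (11 of 17) and smooth muscle and pericyte markers 0.08 (13 of 20). Melanocyte and glia markers had a median of -0.07 (3 of 10 positive) and pluripotent stem cell markers 0.02 (6 of 10).

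**Figure D5:**
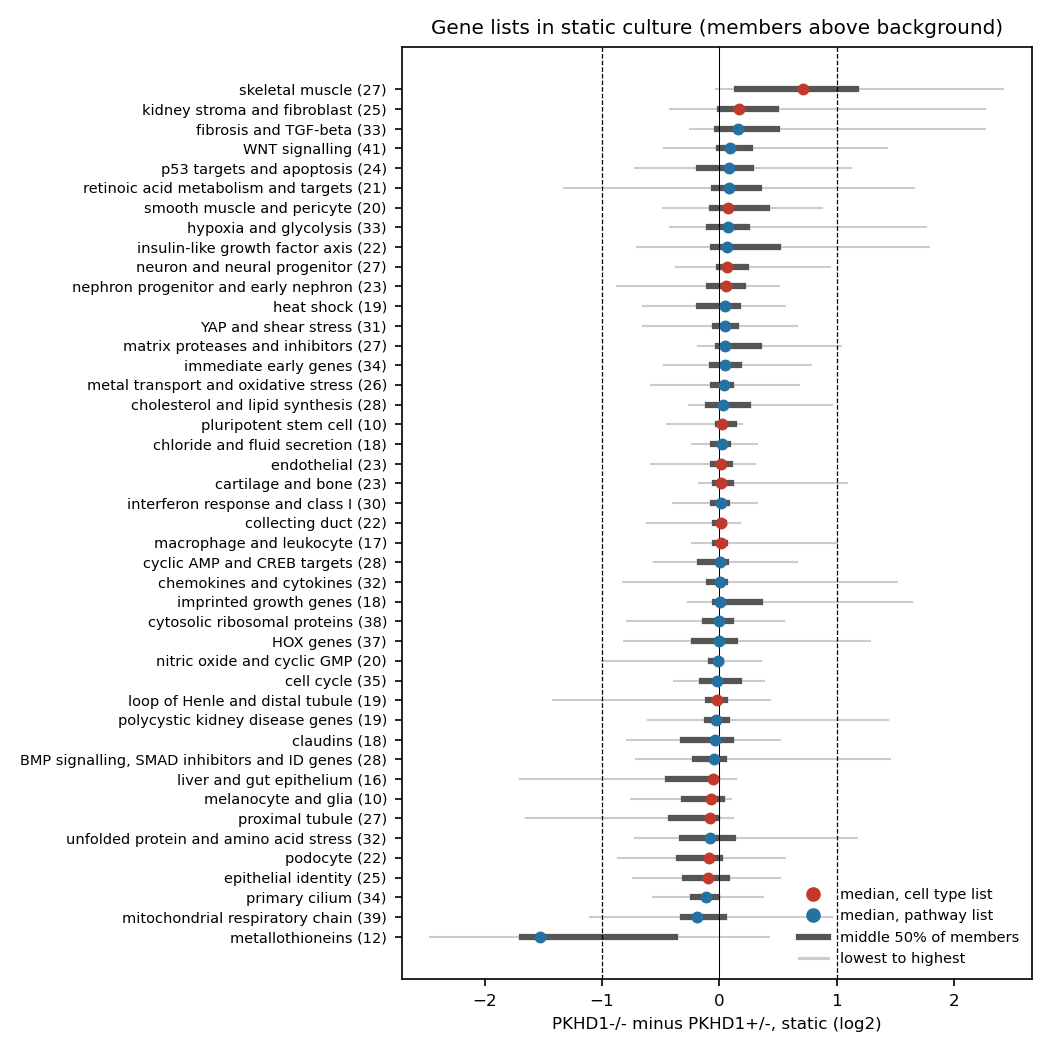
Each row is 1 of 44 gene lists with its number of genes above background in static culture, the dot is the median log2 difference PKHD1-/- minus PKHD1+/- (red cell types, blue pathways), the thick bar the middle 50% of the genes and the thin line their range. Skeletal muscle at 0.72 and metallothioneins at -1.53 lie apart, and every other median lies between -0.19 and 0.16.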

How the data were processed

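Per the file headers, the deposited scanner files give a linear median intensity for each of 27456 spots, with no background subtracted. On each array the authors' value table is a linear function of this intensity (r2 = 1) that is 0 at the blank spots and has a median of 25. Steps of the authors beyond these are not given in the sources used here. Normexp correction (offset 50) of the spot medians was followed by log2 and quantile normalization over 6 arrays (limma 3.58.1, R 4.3.3); differences were computed in Python 3.11.15 with pandas 2.3.3. The offset draws dim genes together and so understates their differences. A single gene symbol was paired with 20236 of 24460 probes and none with 4224. Probes with a bad flag on any array (205) were dropped, and probes of a gene were averaged (17446 genes). Above background means that a probe has a value in the authors' table. Genes above background on at least 1 static array were kept: 16027, of which 15555 on both, and 1419 were left out. The procedure was tested on simulated data. Precision is limited by the number of arrays.

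The pair and the 44 gene lists (16 of cell types and 28 of pathways) were chosen with earlier results of these data known. Genes named are PKHD1, the 20 highest and 20 lowest static differences whose probes share 1 sign that the value table also has, up to 6 genes with the largest differences of each list, every metallothionein measured, and list members that define a cell type or work with a named gene; genes outside the rule that complete a count, or that were singled out from the remaining 2-fold genes (SERPINH1, CXCR4 and TMSL8 among them), were chosen after their values were seen. Alternatives were 75th percentile scaling, quantile normalization of the 2 static arrays alone, an offset of 16, no background correction, the value table, 2 filters and the brightest probe.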

Additional observations from a re-analysis of the deposited data

Results flagged for a closer look

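The genotype difference had opposite signs in static culture and under flow, with at least a 2-fold size in both, for 31 genes. Of these, 20 follow, and the rest are named above, PFN1 (-2.60 under flow, 1.32 in static culture) and BANF1 (-2.41, 1.23) among them. Each value rests on 1 array a side, and the difference between the cultures was not tested. The flow value, PKHD1-/- minus PKHD1+/- on the log2 scale, was -3.25 for COL1A1 (2.26 in static culture), -3.18 for MYL9 (1.44), -2.52 for BSG (1.54), -2.35 for CRABP1 (1.66) and -2.31 for YWHAE (2.06). It was -2.23 for PKM (1.76), -2.11 for PRKCSH (1.43), -2.09 for MMP2 (1.03), -2.03 for BAT1 (1.46) and -2.0 for IGFBP4 (1.55). It was -1.69 for TPM4 (1.81), -1.62 for IGF2 (1.11), -1.60 for IL32 (1.51), -1.56 for HOXC10 (1.28) and -1.49 for IGF2BP2 (1.78). The lowest sizes among these 20 were -1.48 for SF3B4 (1.43), -1.33 for CRABP2 (1.35), -1.21 for IGFBP5 (1.10), -1.19 for CALR (1.17) and -1.01 for NNAT (1.64).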

How the results depend on the processing

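No paired analysis was possible because each group has 1 array and the labels give no replicate numbers. Leaving out an array would leave no pair, so no such setting was run. The counts of genes at least 2-fold higher and lower were 70 and 39. They were 133 and 86 with a normexp offset of 16 and 519 and 402 in the authors' value table, both of which spread dim genes more by construction. With 75th percentile scaling they were 67 and 55, and over the other settings, cyclic loess included, which was chosen after seeing the data, 70 to 82 and 39 to 45. In the value table the list medians were 1.59 for skeletal muscle (1.04 with offset 16), -1.78 for metallothioneins, -0.31 for proximal tubule, -0.28 for liver and gut, 0.39 for the insulin-like growth factor axis, 0.30 for neurons and 0.25 for matrix proteases, and the cause was not tested beyond that construction. Cytosolic ribosomal proteins stood at -0.21 with 75th percentile scaling, and the cause was not tested. The sign turned for 9 of 44 list medians with that scaling, for 4 each in the value table and with cyclic loess, and for 1 each in 2 more settings, all of medians under 0.1 in size. Of 57 named genes at least 2-fold apart, none changed sign in any setting, but part of this was fixed in advance. The filters cannot change a gene's difference, and the brightest probe can do so only for genes with more than 1 probe. These were 6 of the 70 higher and 1 of the 39 lower genes. The highest and lowest genes were also named only if their probes and the value table shared a sign. Fewer than 2-fold were IGFBP2, IGFBP5, MEST, MMP2 and OGN with 75th percentile scaling (0.83 to 0.93), MEST, MMP2 and OGN in the value table (0.89 to 0.95) and IGF2 by its brightest probe (0.78). Signal over background limits dim genes, for which the offset decides the size of a difference.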
